A study of Mus musculus with 19 samples.

Results

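*Usp2*, *Ankrd12*, *Lgalsl* and *5930430L01Rik* are 4 genes that stand outside the core circadian clock and that were higher under calorie restriction (CR) than with ad libitum feeding (AL) in both the cornea and the conjunctiva of mice. They were chosen by name, on the diet contrast in these same libraries. All 4 had a row in each tissue's table, among 24552 genes with a symbol of their own, and all 4 passed the filter on low values in both tissues. Because the diet difference is what the 4 genes were chosen by, it is given below as values and their errors, with no p-value, and it is no evidence for itself. The data were RNA sequencing values from 19 libraries, with 5 AL and 5 CR libraries of the cornea and 4 AL and 5 CR libraries of the conjunctiva. The mice were of strain C57BL/6 by the labels and of the substrain C57BL/6J by the study's methods, and no allele, transgene or treatment other than diet was named. AL mice ate freely. CR mice received a reduced ration, which by the study's methods was given once a day shortly before the dark phase over several months of adult life in females. In a cohort described there, CR mice also ate a chow with more vitamins and micronutrients than the chow of AL mice. Another cohort was kept at a different site on a different chow, and the library titles name no cohort. The labels call the mice young and carry the tags 6M and 50W, which they do not spell out. By the methods, the cornea samples were scraped epithelium and the conjunctiva was excised whole. No source used here ties a library to a litter or a cage, so errors and p-values measure the spread between these libraries.

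*Usp2* encodes a deubiquitinase of the ubiquitin-specific protease family. Such enzymes remove ubiquitin from other proteins and so spare them from the proteasome. USP2 is known as a protein whose own transcript cycles over the day in many tissues, and clock proteins are among its reported substrates. *Ankrd12* encodes an ankyrin repeat protein of the nucleus that binds coactivators of nuclear receptors and histone deacetylases. *Lgalsl* encodes a galectin-like protein that is related in sequence to the galectins, a family of sugar-binding proteins, and its role is little known. *5930430L01Rik* is annotated as a long noncoding RNA (lncRNA) with no named function. The E-box, to which the clock's CLOCK and BMAL1 proteins bind, is the best known DNA element by which the clock drives other genes.

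Values are normalized counts, that is, read counts per gene divided by a size factor of the library, which the authors estimated in each tissue's own table. Levels of the 2 tissues are therefore not on a common scale. The libraries of the cornea held between 10354125 and 14681223 counted reads, and those of the conjunctiva between 10726717 and 14433441. A count of 0 allows up to 3 reads, or 2.27 to 3.37 normalized counts, and the lowest count of any of the 4 genes in any library was 93 reads, of *5930430L01Rik*. Such limits cover counting error only. The share of genes at 0 reads was 40.5% ± 2.70 (SD, n = 5) in AL corneas and 44.4% ± 3.06 (SD, n = 5) in CR corneas. In the conjunctiva it was 35.3% ± 1.90 (SD, n = 4) and 37.1% ± 2.29 (SD, n = 5). Markers of the corneal epithelium (5 of 5 genes detected, *Krt12* among them) summed to between 461653 and 664224 normalized counts in corneas, and those of the conjunctival epithelium (5 of 5, with *Krt13* and *Muc5ac*) to between 35799 and 86965 in conjunctivas. The corneal epithelium sum was between 88590 and 140215 in conjunctivas, and the conjunctival epithelium sum between 39207 and 81404 in corneas. The conjunctival epithelium list thus does not set the tissues apart. Summed skeletal muscle markers (5 of 5: *Acta1*, *Ckm*, *Myh4*, *Tnnt3* and *Mb*) reached at most 38.3 normalized counts in the cornea. In the conjunctiva they ran from 10489 to 47990.2 in AL libraries and from 11439.7 to 107631 in CR libraries. The excised conjunctiva thus held muscle RNA in every library, in amounts whose ranges overlapped between the diets. Some single libraries stood apart in other markers. Meibomian gland markers (4 of 4) summed to 6720.0 normalized counts in conjunctiva CR 5 and to between 6.66 and 269.8 in the other conjunctivas. Conjunctival epithelium markers were at 81404 in cornea CR 7 and between 39207 and 56865 in the other corneas, and lacrimal gland markers (7 of 7) were at 2724 in cornea AL 1 and at 56.7 to 410 in the rest. Fibroblast markers (6 of 6) ran from 39249.6 to 58882 in AL and from 25864 to 51295 in CR conjunctivas, and macrophage markers (6 of 6) from 2324 to 3206 and from 1546 to 2367.

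A gene was called changed where limma, fitted across all genes of a tissue whose mean reached 10 normalized counts, gave a Benjamini-Hochberg adjusted p under 0.05 and a change over 1.5-fold. In the cornea 150 of 12278 genes were called (1.22%), 92 of them higher under CR (0.749%). In the conjunctiva 50 of 13929 were called (0.359%), 31 of them higher (0.223%). For 2.08% of the genes tested in the cornea, and 1.92% of those in the conjunctiva, all 5 CR libraries stood above all AL libraries. The 4 genes are among those called higher and free of overlap in both tissues, from which nothing is read, since they were chosen on this contrast. Of 11929 genes tested in both tissues, 17 were called higher in both, which is 18.5% of the genes called higher in the cornea and 54.8% of those in the conjunctiva. The others were the clock and clock output genes *Bhlhe41*, *Ciart*, *Cry2*, *Dbp*, *Nr1d1*, *Nr1d2*, *Per2*, *Per3* and *Tef*, and the further genes *Ccnd2*, *Cyp2a5*, *Eef2k* and *Slc6a6*. Just inside the limits lay *Ankrd12*, with a log2 change of 0.67 in the cornea against a limit of 0.58 (1.5-fold). Just outside lay *Cbr2*, called in the conjunctiva with 0.73 but at 0.55 in the cornea, and *Fkbp5*, called in the cornea with 1.36 but at 0.83 with an adjusted p of 0.0594 in the conjunctiva.

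*Usp2* (gene identifier 53376) lies on the plus strand at chr9:44067021-44095627 in GRCm38.p6, and RefSeq gives it 12 transcripts. In the cornea its normalized counts were 261, 309, 228, 289 and 191 in AL libraries 1 to 5, and 735, 768, 745, 532 and 469 in CR libraries 1, 2, 3, 4 and 7. The CR libraries fell into a higher set (1, 2 and 3) and a lower set (4 and 7), and the lowest of them still lay above the highest AL library. The mean went from 256 ± 47.5 (SD, n = 5) to 649.8 ± 138 (SD, n = 5), a log2 change of 1.34 ± 0.17 (SE; 95% confidence interval 0.98 to 1.70), or 2.52-fold. Among the 12278 tested genes, 88 had a larger log2 change.

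In the conjunctiva *Usp2* stood at 760, 505, 686 and 856 normalized counts in AL libraries 1, 3, 4 and 5, and at 1861, 2529.9, 2763, 1822 and 1349.8 in CR libraries 1 to 5. No CR library reached down to an AL library, and the CR values spread over a range about as wide as their distance from AL. The diet means were 702 ± 148 (SD, n = 4) and 2065 ± 574 (SD, n = 5), a log2 change of 1.54 ± 0.21 (SE; 95% confidence interval 1.09 to 1.98), or 2.90-fold. The order of the libraries within a diet largely went along with the muscle markers. Their sum was highest in CR 3 (107631) and next in CR 2 (59589.7), the CR libraries with the most *Usp2*, and lowest in CR 5 (11439.7), the CR library with the least. Among AL libraries it was lowest in AL 3 (10489), again that with the least *Usp2*, and between 45499 and 47990.2 in the other 3. With the log2 of the muscle sum as a covariate, an alternative chosen after seeing the data, the log2 change of *Usp2* was 1.41 ± 0.14 (SE), against 1.54 ± 0.21 without it. In the cornea, where the muscle markers were near 0, the change of *Usp2* was 1.34. RefSeq places the lncRNA *Gm39325* across the first part of *Usp2* on the opposite strand, and GENCODE has the protein-coding model *Gm49380* across all of *Usp2* on that strand. Since use of strand in counting is not settled, reads from either cannot be told apart from those of *Usp2*.

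*Ankrd12* (gene identifier 106585) lies on the minus strand at chr17:65965703-66078804 in GRCm38.p6, with 11 RefSeq transcripts. In RefSeq the protein-coding gene *Ndufv2* (chr17:66078795-66101559), on the same strand, overlaps the end of *Ankrd12* with the higher coordinates. The normalized counts of *Ankrd12* in the cornea were 2031, 1608, 1802, 1844 and 1778 in AL libraries 1 to 5, and 3692, 2974, 3318, 2168 and 2501 in CR libraries 1, 2, 3, 4 and 7. The AL libraries lay close together and the CR libraries were widely spread, with CR 4 only a little above AL 1. The mean went from 1812 ± 151 (SD, n = 5) to 2931 ± 612 (SD, n = 5), a log2 change of 0.67 ± 0.13 (SE; 95% confidence interval 0.40 to 0.95), or 1.59-fold. It was the smallest change among the 4 genes, and 568 tested genes had a larger one.

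In the conjunctiva *Ankrd12* was at 2242, 2217, 2631 and 2587 normalized counts in AL libraries 1, 3, 4 and 5, and at 4179.7, 3922, 3544, 4619.7 and 4642 in CR libraries 1 to 5. Here both diets were tight and stood well apart. The diet means were 2419.6 ± 220.2 (SD, n = 4) and 4182 ± 468 (SD, n = 5), a log2 change of 0.79 ± 0.14 (SE; 95% confidence interval 0.50 to 1.07), or 1.72-fold. Its residual SD of 0.15 on the log2 scale was larger than that of only 11% of the 200 tested genes nearest to it in level, while in the cornea, at 0.23, it was larger than that of 74% of them.

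*Lgalsl* (gene identifier 216551) lies on the minus strand at chr11:20823355-20831916 in GRCm38.p6, has 3 RefSeq transcripts, and overlaps no other gene in RefSeq or GENCODE. In the cornea its normalized counts were 837, 674, 702, 971 and 809.5 in AL libraries 1 to 5, and 1313, 1545, 1561, 1202 and 1948 in CR libraries 1, 2, 3, 4 and 7. CR 7, the lowest CR library for *Usp2* and *5930430L01Rik*, was the highest for *Lgalsl*, and it was also the cornea with the most conjunctival epithelium marker RNA. Without CR 7 the log2 change of *Lgalsl* was 0.82. The group mean went from 799 ± 119 (SD, n = 5) to 1514 ± 287 (SD, n = 5), a log2 change of 0.91 ± 0.14 (SE; 95% confidence interval 0.63 to 1.20), or 1.88-fold. Once the share of genes at 0 entered the model, the cornea change of *Lgalsl* was 0.65, the one value of the 4 genes that moved by more than its residual SD under any alternative.

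In the conjunctiva *Lgalsl* was at 555, 532, 479 and 643 normalized counts in AL libraries 1, 3, 4 and 5, and at 948, 1153, 688, 1239.7 and 1367 in CR libraries 1 to 5. CR 3 lay near the highest AL library and the other CR libraries well above it. The diet means were 552 ± 68.6 (SD, n = 4) and 1079 ± 267 (SD, n = 5), a log2 change of 0.93 ± 0.19 (SE; 95% confidence interval 0.54 to 1.33), or 1.91-fold. Without CR 3, the library with the most muscle marker RNA, the log2 change was 1.09, and with the muscle sum as a covariate it was 0.99. Once the share of genes at 0 entered the model, it was 0.68.

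*5930430L01Rik* (gene identifier 319982) lies on the minus strand at chr5:148990056-148995215 in GRCm38.p6, with 2 RefSeq transcripts. Its normalized counts in the cornea were 145, 102, 105, 138 and 112 in AL libraries 1 to 5, and 349, 279, 247, 285 and 189 in CR libraries 1, 2, 3, 4 and 7. The lowest CR library, CR 7, was the one nearest to AL. On average it went from 120.4 ± 19.9 (SD, n = 5) to 269.8 ± 58.7 (SD, n = 5), a log2 change of 1.14 ± 0.19 (SE; 95% confidence interval 0.74 to 1.55), or 2.21-fold.

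In the conjunctiva *5930430L01Rik* was at 277, 109, 201 and 241 normalized counts in AL libraries 1, 3, 4 and 5, and at 616, 697, 448, 717 and 877 in CR libraries 1 to 5. AL 3 stood below the other AL libraries, and all CR libraries lay above AL 1. The diet means were 207 ± 72.5 (SD, n = 4) and 671 ± 156 (SD, n = 5), a log2 change of 1.74 ± 0.26 (SE; 95% confidence interval 1.19 to 2.29), or 3.34-fold, the largest among the 4 genes in either tissue. Without AL 3 it was 1.46, and without AL 1 it was 1.91. The lncRNA *Gm15411* of RefSeq runs over the whole of *5930430L01Rik* on the same strand, and in GENCODE so does the lncRNA *Gm15406*, while the model *Gm42791* covers nearly all of it. Reads of these genes could have been split or shared in counting.

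**Figure D1:**
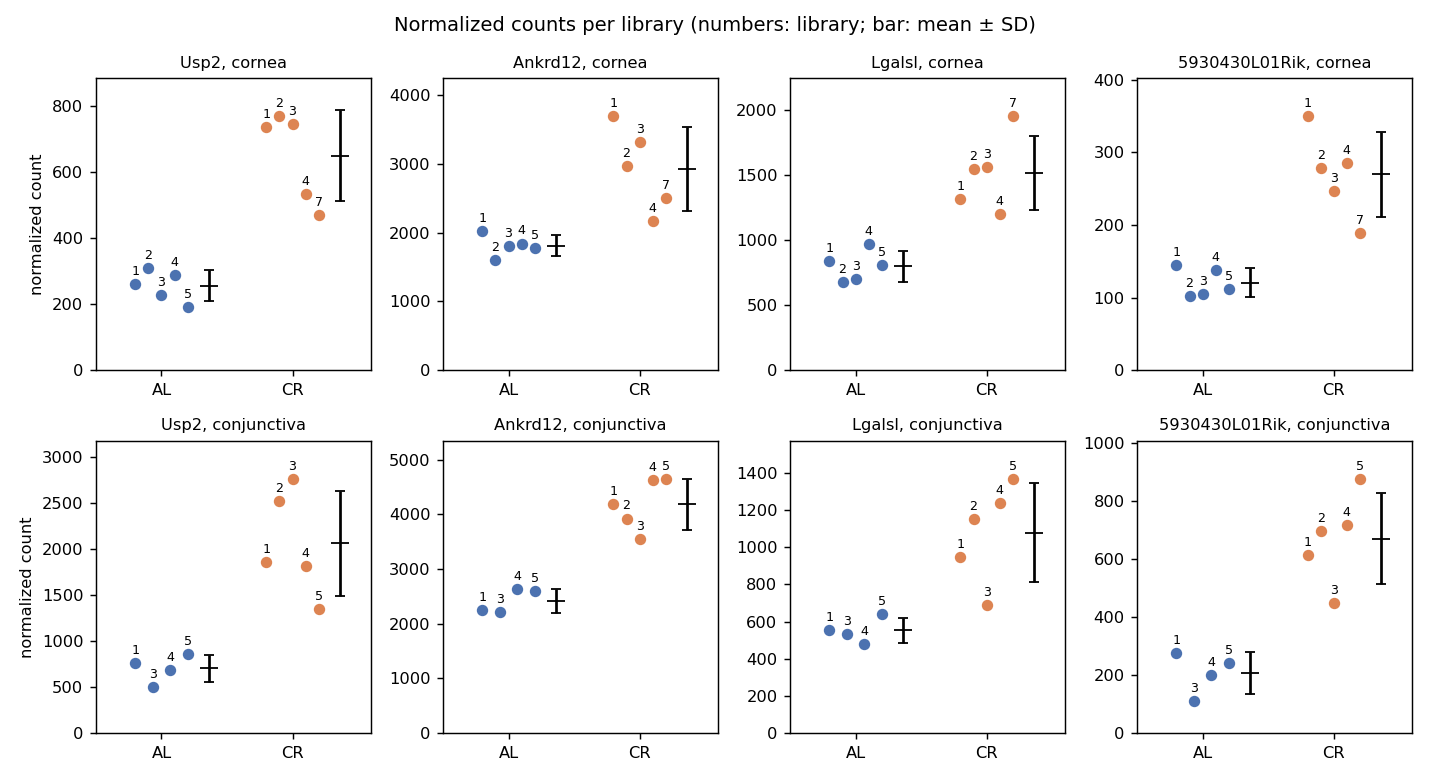
Normalized counts (vertical axis, from 0) of the 4 genes in each library of the cornea (top row) and conjunctiva (bottom row), AL in blue and CR in orange, with the replicate number above each point and black bars for the mean ± SD. In all 8 panels every CR point lies above every AL point, and within the CR conjunctivas library 3 is the highest for *Usp2* and the lowest for the other 3 genes.

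The 4 genes did not share one order of libraries within a diet. In the CR conjunctivas *Usp2* was highest in CR 3 and lowest in CR 5, whereas *Ankrd12*, *Lgalsl* and *5930430L01Rik* were each lowest in CR 3 and highest in CR 5. In the CR corneas CR 1 was the highest library for *Ankrd12* and *5930430L01Rik*, CR 2 for *Usp2* and CR 7 for *Lgalsl*. The part of muscle RNA in the orders within the conjunctiva was not tested beyond the covariate values given for each gene. CR 5, the library with the meibomian gland markers, was at the top for those 3 genes, and without it their log2 changes were 0.75, 0.84 and 1.63 in that order. The part of that gland's RNA in them was not tested further. For *Ankrd12* and *5930430L01Rik* the log2 changes with the muscle covariate were 0.80 and 1.72, against 0.79 and 1.74 without it. Fewer cells of a type and less RNA per cell cannot be told apart in these bulk samples, in either tissue.

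The sizes of change in both tissues lay near each other for 3 of the genes. The intervals below treat the libraries of the tissues as independent, although the study took several tissues from each mouse and the labels do not say which libraries share one. The cornea change minus the conjunctiva change was −0.02 for *Lgalsl* (95% confidence interval −0.49 to 0.45), −0.12 for *Ankrd12* (−0.50 to 0.27) and −0.20 for *Usp2* (−0.75 to 0.35). For *5930430L01Rik* it was −0.59 (−1.25 to 0.064), with the larger change in the conjunctiva. These intervals are wide enough to hold differences of about the size of the smaller changes themselves, so they do not show that the tissues respond alike. On the scale of CPM, the reads of a gene scaled to a fixed number of counted reads per library, *Usp2* was at 22.0 in AL and 56.7 in CR corneas and at 59.4 and 166 in the conjunctiva. *Lgalsl* was at 68.9 and 131 in the cornea and at 46.7 and 84.8 in the conjunctiva. *Ankrd12* was at 156 and 255, and 205 and 331. *5930430L01Rik* was at 10.4 and 23.5, and 17.6 and 52.8. *Lgalsl* was thus the one gene of the 4 with the higher level in the cornea, and the levels of the tissues were not tested against each other, since each tissue was processed in a table of its own.

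**Figure D2:**
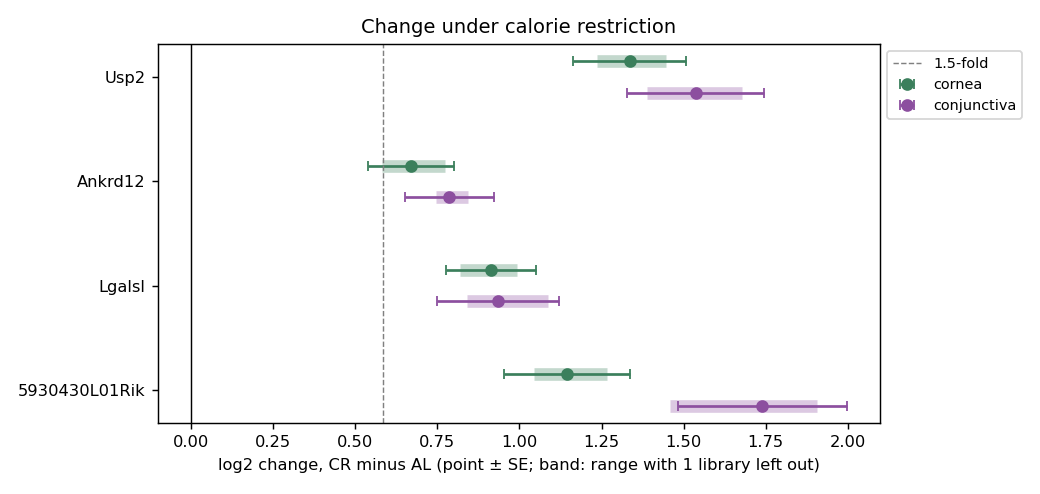
Log2 change, CR minus AL, of the 4 genes in the cornea (green) and conjunctiva (purple), as points with the SE, over a pale band that spans the values with 1 library left out. All 8 points lie to the right of the dashed line at 1.5-fold, and the bands stay above 0, from 0.58 for *Ankrd12* in the cornea to 1.91 for *5930430L01Rik* in the conjunctiva.

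The DNA just before the annotated start of each gene was read from RefSeq (GRCm38.p6), whose promoter set held 1 entry for each of the 4 genes. For *Usp2*, *Ankrd12* and *Lgalsl* the annotations hold starts elsewhere too, and the window of *Usp2* (chr9:44084670-44084919) lies at an internal start, so each window is one of several. Shown are the 2 promoters in which the E-box was found, as the 250 bases before the start, 5′ to 3′ on the strand of the gene, with each E-box (CACGTG) and E′-box (CACGTT) in capitals. *Ankrd12* is from chr17:66077047-66077296 (minus strand) and *5930430L01Rik* from chr5:148995215-148995464 (minus strand).
Ankrd12: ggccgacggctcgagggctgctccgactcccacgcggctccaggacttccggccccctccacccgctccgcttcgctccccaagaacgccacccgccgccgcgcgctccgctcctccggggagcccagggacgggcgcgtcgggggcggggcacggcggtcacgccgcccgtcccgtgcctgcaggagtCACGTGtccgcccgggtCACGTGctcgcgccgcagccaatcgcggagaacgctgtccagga
5930430L01Rik: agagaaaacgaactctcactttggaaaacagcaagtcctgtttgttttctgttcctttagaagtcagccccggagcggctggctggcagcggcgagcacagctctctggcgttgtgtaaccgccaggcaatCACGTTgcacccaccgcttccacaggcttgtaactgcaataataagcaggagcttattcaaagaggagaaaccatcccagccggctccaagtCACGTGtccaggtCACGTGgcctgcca

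Each of these promoters held 2 copies of CACGTG close to the start. In *Ankrd12* the copies began 61 and 44 bases before the start, with 11 bases between them. In *5930430L01Rik* they began 27 and 14 bases before the start, with 7 bases between them, and a CACGTT began 119 bases before it. Of the 32851 promoters of the same length (250 bases before and 50 after the start, both strands searched), 7.15% held a CACGTG, 0.594% held 2 or more, and 24 promoters (0.0731%) held 2 with 7 to 11 bases between them. That range of spacing was set from these 2 genes.

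The other 2 genes had no E-box in their windows. *Usp2* had a TGACGT, the first part of a cyclic AMP response element, that spans its start and is found in 7.51% of promoters, and *Lgalsl* had none of the motifs searched. No window of the 4 held a D-box (TTATGTAA or TTACGTAA, in 1.06% of promoters), a ROR element (TAGGTCA or TGGGTCA, 6.45%), one arm of a glucocorticoid receptor site (AGAACA, 19%) or a heat shock element (TTCNNGAA, 8.52%). A match in these letters is a description of the sequence and no sign of binding, and the lack of one covers these windows alone.

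Among other genes with such an E-box pair, *Ciart* alone was called. The other 22 genes with such a pair included 16 tested in the cornea and 17 tested in the conjunctiva. In each tissue 1 of them was called, where 1.22% (cornea) and 0.359% (conjunctiva) of all tested genes were. It was the clock repressor *Ciart*, with log2 changes of 3.78 ± 0.38 and 2.72 ± 0.53 (SE; limma adjusted p = 2.22e-05 and 0.0335). With 1 gene called, nothing is read from the count. The tested genes with such a pair had a median log2 change of 0.09 (cornea) and −0.03 (conjunctiva), against −0.03 and −0.02 over all tested genes. Among the genes called higher in both tissues, 14 had a promoter in the set, and 6 of the 14 held a CACGTG, 3 of them 2 or more (*5930430L01Rik*, *Ankrd12* and *Ciart*). Without the 4 genes, whose promoters prompted the count, 4 of 10 held a CACGTG and 1 held 2 or more. Over all 27025 genes of the set, 8.09% held a CACGTG and 0.681% held 2 or more in 1 promoter.

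**Figure D3:**
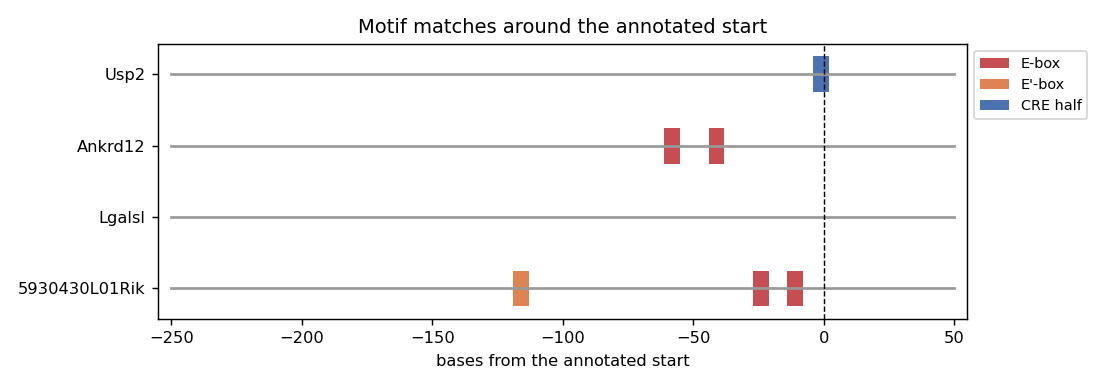
Position of motif matches in the window around the annotated start of each gene (horizontal axis, bases from the start, dashed line at the start), with E-boxes in red, the E′-box in orange and the cyclic AMP response element part in blue. *Ankrd12* and *5930430L01Rik* each have a pair of E-boxes within 61 bases of the start, *Usp2* has 1 match at the start and *Lgalsl* none.

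No relative of *Usp2* was called higher with it. Of 49 other ubiquitin-specific proteases, 42 were tested in the cornea and 44 in the conjunctiva, and 0 were called by limma in either tissue. Of all tested genes 1.22% (cornea) and 0.359% (conjunctiva) were called. At an unadjusted p under 0.05 there were 6 of the 42 (cornea) and 5 of the 44 (conjunctiva), where 18.1% of all genes tested in the cornea and 9.4% of those in the conjunctiva had such a p, so these counts lie near the background. Their median log2 change was 0.07 (cornea) and 0.05 (conjunctiva), against −0.03 and −0.02 over all tested genes. Nearest to a call was *Usp22*, a subunit of the histone-deubiquitinating module of the SAGA coactivator complex, which was higher in all 5 CR corneas than in any AL cornea, with a change of 0.54 ± 0.11 on the log2 scale (SE; limma adjusted p = 0.0191) that lay under the 1.5-fold limit. *Usp46* in the cornea had a change of 0.52 (adjusted p = 0.0690), and in the conjunctiva *Usp54* had 0.63 (adjusted p = 0.263) and *Usp53* 0.41 (adjusted p = 0.398).

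The next list, like the others drawn up with results of these libraries known, held genes tied to USP2. Of 13 genes whose proteins are reported as USP2 substrates or as regulated through them, 10 were tested in the cornea and 11 in the conjunctiva. In the cornea 2 rose, 1 fell and the other 7 did not pass, where 1.22% of all tested genes were called in either direction, and the median log2 change was 0.03. Those called were *Per1*, *Ccnd1* and *Arntl*. *Cry1*, a clock gene of the same list, had a log2 change of 0.15 (limma adjusted p = 0.756). *Aurka*, a cell cycle gene of the list, had −0.26 (limma adjusted p = 0.595). *Per1*, a clock repressor, was at 124, 59.0, 58.9, 91.1 and 34.0 normalized counts in AL corneas 1 to 5 and at 341, 545, 631, 356 and 356 in the CR corneas, a change of 2.67 ± 0.30 on the log2 scale (SE; limma adjusted p = 0.000251). *Ccnd1*, encoding cyclin D1 of the G1 phase, went from 8189 ± 823 to 14846 ± 1802 (SD, n = 5 each), a change of 0.86 ± 0.11 (SE; limma adjusted p = 0.000251), and the diets did not overlap. *Arntl*, encoding BMAL1, the partner of CLOCK, went from 230.4 ± 64.4 to 87.1 ± 35.6 (SD, n = 5 each), a change of −1.46 ± 0.30 (SE; limma adjusted p = 0.0195). The adjusted p of *Arntl* was 0.0684, 0.0709 and 0.0732 without AL 2, AL 5 and CR 2 in turn, and 0.123 once the share of genes at 0 entered the model. Since the substrates are regulated as proteins and mRNA was measured, these values say nothing of the action of USP2 on them.

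In the conjunctiva none of the 11 substrate genes was called by limma, where 0.359% of all tested genes were. An unadjusted p under 0.05 was found for 4 of the 11, against 9.4% of all genes tested there. *Per1* had a log2 change of 1.55 ± 0.35 (SE; adjusted p = 0.117), *Ccnd1* 0.66 ± 0.16 (adjusted p = 0.112) and *Scnn1a*, a subunit of the epithelial sodium channel, 0.84 ± 0.22 (adjusted p = 0.131). *Arntl* was at 158, 144, 179.7 and 234 normalized counts in AL libraries 1, 3, 4 and 5 and at 34.1, 11.4, 17.4, 0.0 and 17.7 in CR libraries 1 to 5. Its log2 change was −4.03 ± 0.86 (SE; limma adjusted p = 0.0937), and the call depended on the processing. The adjusted p of *Arntl* was 0.000963 with a pseudocount of 10, 0.00159 without CR 4, 0.0251 with voom and 0.0400 after quantile normalization. It was 0.194 with a pseudocount of 0.5, 0.254 with the covariate for the share of genes at 0 and 0.258 with the replicate number as a block. The call of *Ccnd1* depended on the processing too. Its limma adjusted p was 0.0265 with array weights, 0.00722 with the muscle covariate and 0.0304 without CR 3. For *Arntl*, *Per1* and *Ccnd1* the diets did not overlap in the conjunctiva either, though none of the 3 was called in the main fit. All CR libraries stood above all AL libraries, as for *Per1* and *Ccnd1*, for 1.92% of the genes tested there. The share in the direction of *Arntl*, with all CR libraries below, is not given here.

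Of the genes around *Ankrd12* in function, 13 nuclear receptor coregulators were listed, its close relative *Ankrd11*, the coactivators and the histone deacetylase complexes among them. All 13 were tested in both tissues and 0 were called by limma, near the 1.22% (cornea) and 0.359% (conjunctiva) of all tested genes. At an unadjusted p under 0.05 there were 3 in the cornea, near the 18.1% of all genes, and 0 in the conjunctiva, against 9.4%. Nearest to a call in the cornea were *Ncoa1*, a coactivator of steroid receptors, with a change of 0.47 ± 0.12 on the log2 scale (SE; limma adjusted p = 0.0482) under the 1.5-fold limit, and *Hdac5*, a class II histone deacetylase, with 0.81 ± 0.23 (adjusted p = 0.0747). *Ncoa1* was between 407 and 494 normalized counts in AL corneas and between 586 and 655 in CR corneas. In the conjunctiva the smallest p was that of *Ankrd11*, with a change of 0.27 (adjusted p = 0.604), followed by *Tada3* with −0.30 (adjusted p = 0.655).

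No galectin was called higher with *Lgalsl*. Of 11 listed, 7 were tested in each tissue, and 1 was called in the cornea, where it fell. Of all genes tested in the cornea 1.22% were called, 0.749% higher, so a count of 0 higher among 7 lies near the background. *Lgals7*, encoding galectin-7 of stratified epithelia, was at 1458, 1619, 1489.8, 959 and 1634 normalized counts in AL corneas 1 to 5 and at 1033, 559.7, 489, 783 and 708 in CR corneas 1, 2, 3, 4 and 7. AL 4 lay below CR 1, so the diets overlapped. The log2 change of *Lgals7* was −1.03 ± 0.19 (SE; limma adjusted p = 0.0154), and −0.62 (adjusted p = 0.0591) once the share of genes at 0 entered the model. Its adjusted p was 0.0576, 0.0525, 0.0569 and 0.0581 without AL 2, AL 3, AL 5 and CR 2 in turn. In the conjunctiva 0 galectins were called by limma and 0 had an unadjusted p under 0.05, against 0.359% and 9.4% of all tested genes. *Lgals7* had a change of −0.09 ± 0.21 there (SE; adjusted p = 0.931). *Lgals3*, an abundant galectin of surface epithelia, had changes of −0.06 ± 0.10 (SE) in the cornea and 0.16 ± 0.17 (SE) in the conjunctiva.

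No tested neighbour of the 4 genes on their chromosomes was called. Genes that overlap one of the 4, such as *Ndufv2* at *Ankrd12*, were not counted as neighbours and were not examined. The 3 annotated genes nearest on each side without overlap gave 11 genes with a row in the tables. Of these 7 were tested in the cornea and 8 in the conjunctiva, with 0 called by limma in either. Of all tested genes 1.22% (cornea) and 0.359% (conjunctiva) were called, so these counts of 0 lie near the background. In the cornea 0 had an unadjusted p under 0.05, against 18.1% of all genes, and the log2 changes ran from −0.24 to 0.20. In the conjunctiva 3 of the 8 had an unadjusted p under 0.05, against 9.4% of all genes. *Thy1*, a marker of fibroblasts and T cells that lies 18442 bases from *Usp2*, had −0.67 ± 0.22 (SE; adjusted p = 0.265), *Twsg1*, beside *Ankrd12*, had −0.40 ± 0.14 (adjusted p = 0.298), and *Hmgb1*, beside *5930430L01Rik*, had 0.41 ± 0.15 (adjusted p = 0.386). The fibroblast marker sum, whose median was 55596 in AL and 29246 in CR conjunctivas, was lower under CR along with *Thy1*, and its part in that value was not tested.

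A test of the difference between the tissues' log2 changes passed at an adjusted p under 0.05 for 2 of 11929 genes and for 0 of the 79 relatives and neighbours. A call in one tissue and not in the other was therefore not shown to be a difference between tissues for *Per1*, *Ccnd1*, *Arntl* or *Lgals7*.

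**Figure D4:**
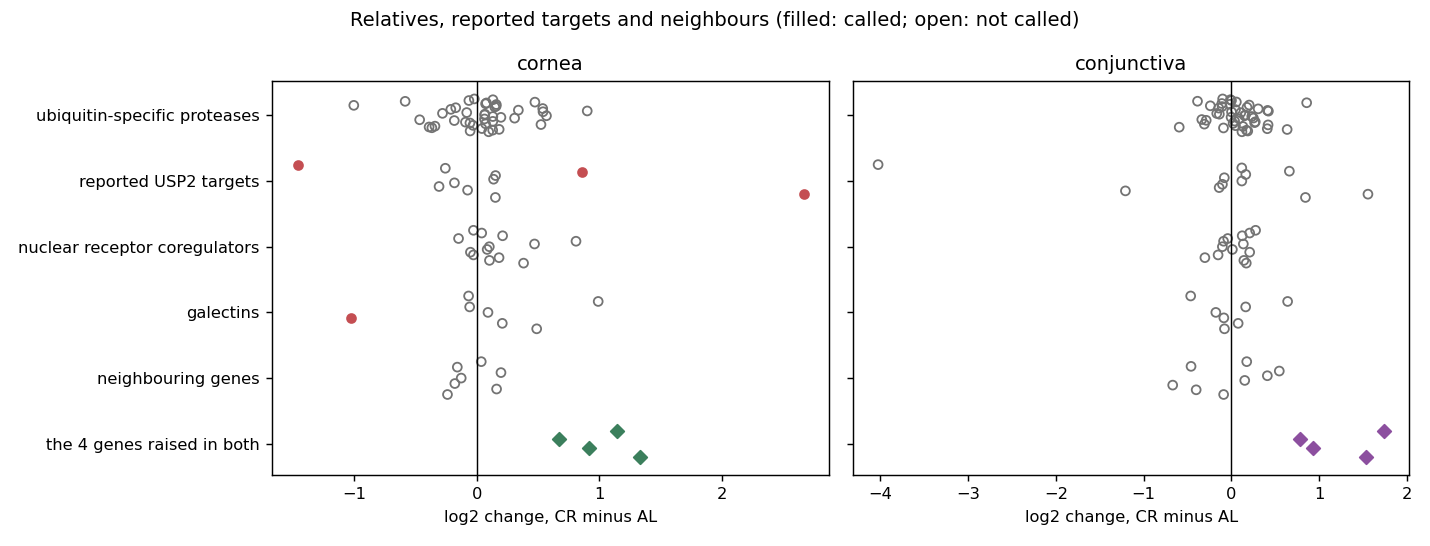
Log2 change, CR minus AL, of each tested gene in the 4 lists of relatives and of the neighbouring genes, in the cornea (left) and conjunctiva (right, on its own scale), filled where called and open where not, with the 4 genes as diamonds in the bottom row. The filled points are *Per1*, *Ccnd1* and *Arntl* among the USP2 substrates and *Lgals7* among the galectins, all in the cornea.

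The genes most like each of the 4 over all 19 libraries were found from the root mean square difference of log2 values, after the mean of each gene in each tissue was subtracted, among 11925 other genes. A gene that did not vary at all would stand at the root mean square of the member itself. The diet difference enters this measure, so likeness is a description. The genes of a library also share its size factor and its tissue makeup.

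*Usp2*, with a root mean square of its own of 0.78, was nearest to *Cry2* (0.33), a clock repressor, and to *Tef* (0.34), a clock output transcription factor. Next came *Tsc22d3* (0.37) and *Fkbp5* (0.39), known targets of the glucocorticoid receptor, and *Slc6a6* (0.39), the taurine transporter. *5930430L01Rik*, with 0.80 of its own, was nearest to *Cry2* (0.36), *Slc6a6* (0.36), *Ccnd2* (0.40), *Nr1d1* (0.40) and *Per3* (0.41). *Cry2* and *Slc6a6* thus stood on both lists.

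*Lgalsl*, with 0.52 of its own, was nearest to *Ccnd1* (0.19), which was followed by *Mical3* (0.21), *Ifi202b* (0.22), *Ccnd2* (0.22) and *Sorbs2* (0.23). No clock gene was among its 5, and both cyclin genes shared its dip in conjunctiva CR 3. *Ankrd12*, with 0.40 of its own, was nearest to *Tmem57* (0.18), with *Sec22c* (0.21), *Trim24* (0.21), *Ahdc1* (0.22) and *Kmt2e* (0.22) after it. The log2 changes of these 5 genes ran from 0.23 to 0.53 in the cornea, below the 0.67 of *Ankrd12*, and from 0.43 to 0.81 in the conjunctiva. Among the 4 genes themselves, the difference was smallest between *Ankrd12* and *Lgalsl* (0.27) and largest between *Usp2* and *Lgalsl* (0.52), a measure that grows with the spread of the genes themselves. By rank from *Usp2*, *5930430L01Rik* came 7th, *Ankrd12* 18th and *Lgalsl* 26th. From *Ankrd12*, *Lgalsl* came 72nd and *5930430L01Rik* 4194th, and from *Lgalsl*, *5930430L01Rik* came 1237th. The difference between *Ankrd12* and *5930430L01Rik* (0.47) was larger than the 0.40 at which a gene that did not vary would stand. Such a rank depends on the spread of both genes and does not show that their profiles were unlike.

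**Figure D5:**
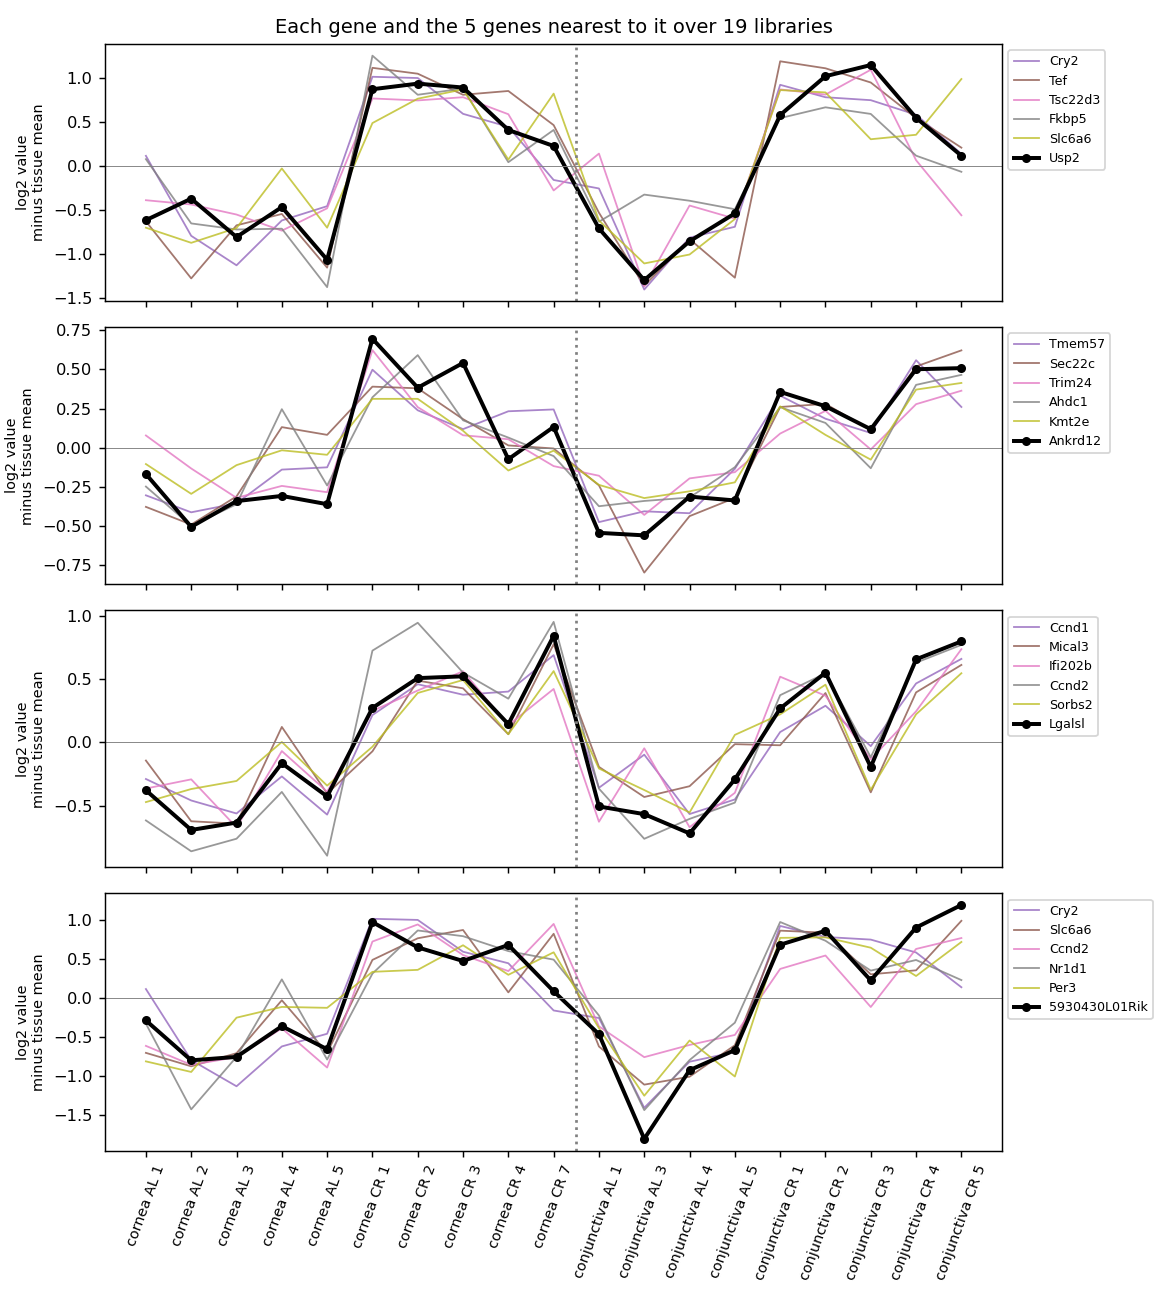
Log2 value minus the tissue mean (vertical axis) in each of the 19 libraries (horizontal axis, cornea left of the dotted line) for each of the 4 genes in black and the 5 genes nearest to it in color. *Usp2*, *Cry2* and *Tef* share the step between the diets in both tissues but not always the order of libraries within a diet, and *Lgalsl* and its 5 nearest genes all dip in conjunctiva CR 3.

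Replicate numbers that both tissues share within a diet (AL 1, 3, 4 and 5, CR 1, 2, 3 and 4) gave 8 pairs of cornea and conjunctiva libraries, which the labels do not say to be of 1 mouse, although by the methods several tissues were taken from each mouse. Over all genes the deviations of same-numbered libraries from their diet means correlated at −0.09 on average (−0.42 to 0.14), against 0.05 (−0.38 to 0.40) for libraries of other numbers, so the numbers were not seen to mark shared mice. For the 4 genes the correlation of these deviations was 0.27 for *Usp2* (exact permutation p = 0.514), −0.55 for *Ankrd12* (p = 0.229), −0.34 for *Lgalsl* (p = 0.382) and 0.57 for *5930430L01Rik* (p = 0.167) by exact permutation, two-sided. Spearman's rho was 0.50, −0.55, −0.50 and 0.43 in the same order (exact permutation p = 0.191, 0.212, 0.191 and 0.330). After Benjamini-Hochberg adjustment over the 4 genes the exact permutation p-values were 0.458 to 0.514 for r and 0.282 to 0.330 for rho, so no relation passed. Without the 2 pairs whose cornea deviation lay farthest from the median, picked for each gene, r was 0.76, −0.69, 0.01 and 0.58 in that order. The values of *Usp2* and *Lgalsl* thus depended much on those pairs.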

How the data were processed

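Gene-level RNA sequencing values of 10 cornea and 9 conjunctiva libraries were used. By the study's methods, the authors trimmed single reads with cutadapt, aligned them with STAR, counted them per gene with HTSeq and took relative log expression size factors from DESeq2, all within ROSALIND. Their versions and the use of strand are not given in the sources used here. The methods name build mm10 and the submitters' processing notes GRCm39, and the labels and methods name different library kits, so reads may or may not come mainly from the 3′ ends of transcripts. The deposited values are log2 of the normalized count plus 1, in a table for each tissue. They were turned back into normalized counts and whole reads (100% came out within 0.01 of a whole number). All columns were mapped to a library from the labels.

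Diets were compared within each tissue with limma 3.58.1 (R 4.3.3, statmod 1.5.0) fitted to log2(normalized count + 1), with an intensity trend and robust empirical Bayes, over the genes whose mean reached 10 normalized counts and with Benjamini-Hochberg adjustment over all of them. Changes on this scale understate those of low genes. The 4 genes, the lists and the tests were chosen with earlier results of these data known. Named from each list, and from the 3 neighbours on each side, was each gene called in either tissue and otherwise the 2 with the smallest p in each tissue. For each of the 4 genes the 5 most like it were named. *Scnn1a*, *Cry1*, *Aurka*, *Lgals3*, *Hmgb1*, *Ciart* and genes at the limits were named, where they appear, after their values were seen. As alternatives, the pseudocount was set to 0.5 and to 10, the filter was dropped or raised to a mean of 50, and the fit was repeated after quantile normalization, with array weights, by limma voom on the recovered reads, with the replicate number as a block, with a covariate for the share of genes at 0 and without each library in turn. The muscle covariate was added after seeing the data. The procedure was tested on simulated counts. Positions and promoters are those of RefSeq (GRCm38.p6), matched by gene identifier, and all 4 genes matched.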

Additional observations from a re-analysis of the deposited data

How the results depend on the processing

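All 8 log2 changes of the 4 genes stayed above 0 under every alternative. One moved by more than its residual SD: *Lgalsl* in the cornea was 0.65, against 0.91, once the share of genes at 0 entered as a covariate. With 1 library left out, the log2 changes in the cornea ran from 1.24 to 1.45 for *Usp2*, 0.58 to 0.77 for *Ankrd12*, 0.82 to 0.99 for *Lgalsl* and 1.04 to 1.27 for *5930430L01Rik*. In the conjunctiva they ran from 1.39 to 1.68, 0.75 to 0.84, 0.84 to 1.09 and 1.46 to 1.91 in the same order.

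The number of genes called moved far more. In the cornea, against 150, it was 705 with array weights, 99 with voom and 62 with that covariate. With 1 library left out it ran from 53 (without AL 5) to 536 (without AL 4), and was 309 without CR 1. It was 66, 59 and 62 without AL 1, 2 and 3, and 67 and 58 without CR 2 and 3. In the conjunctiva, against 50, it was 149 with array weights and 213 with the muscle covariate, which kept 49 of the 50. There it ran from 26 (without CR 2) to 127 (without CR 3), with 76 without CR 5, and was 27, 29 and 32 without AL 1, 4 and 5 and 28 without CR 1. Not all of the 4 genes stayed in the called set: 3 did in the cornea without AL 2, AL 5, CR 1 or CR 3, and in the conjunctiva 2 did without AL 1, AL 3 or CR 1 and 3 without AL 4, AL 5, CR 2 or CR 4 and with no filter. Among relatives, 2 ubiquitin-specific proteases and 1 coregulator were called in the cornea with array weights. With 1 library left out, 0 to 2 proteases, 0 to 1 coregulators and 0 to 1 galectins were called there. The galectin (*Lgals7*) was lost, leaving 0, with the same covariate. Of the USP2 substrates in the conjunctiva, *Arntl* alone was called with a pseudocount of 10, quantile normalization or voom, and *Ccnd1* alone with the muscle covariate. With array weights 3 were called there, and 0 to 1 with 1 library left out. Of the neighbours in the conjunctiva, 0 to 1 were called (1 without CR 3). The cause of these shifts was not tested.

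Replicate numbers were not seen to pair the samples: AL and CR libraries of 1 number correlated in their deviations at −0.30 to 0.29 (cornea) and −0.06 to 0.05 (conjunctiva). With so few numbers in each tissue, these values cannot exclude a pairing. With the replicate number as a block, a number found in 1 diet alone adds nothing to the estimated change. Cornea AL 5 and CR 7 and conjunctiva CR 2 thus dropped out of the estimates, and the block left fewer degrees of freedom. In this fit 46 genes were called in the cornea, 2 of the 4 genes among them, and 10 in the conjunctiva, 1 of the 4 among them. 0 galectins were then called in the cornea. The adjusted p of *Arntl* in the cornea was then 0.117 (limma). The log2 changes under the block were 1.35, 0.72, 0.83 and 1.25 in the cornea and 1.45, 0.81, 0.90 and 1.72 in the conjunctiva, for *Usp2*, *Ankrd12*, *Lgalsl* and *5930430L01Rik*. Depth did not limit the 4 genes, which had at least 93 reads in each library. With 4 or 5 libraries a group, the width of the intervals limits the comparison of tissues.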
